A study of Mus musculus with 18 samples.

Results

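HOIL-1, the product of *Rbck1*, was removed from the T-cell lineage of the mouse, and the transcriptome of thymocytes that had just passed positive selection was compared with that of wild-type (WT) thymocytes. The comparison holds 6 of the 18 libraries of the series, CD69+ MHC I low cells of 3 Hoil ΔCd4 mice and of 3 WT mice, and covers 12798 genes with at least 0.5 CPM, a read count scaled to the size of its library, in 3 libraries or more. Hoil ΔCd4 mice carry a Cd4Cre transgene, which acts from the double-positive (DP) stage, and a floxed *Rbck1* allele made from 1 C57BL/6 embryonic stem cell clone, in which loxP sites flank the promoter and the first exons. WT mice were C57BL/6. The sources used here do not say whether these WT mice carried Cd4Cre, nor the age of the animals used for RNA. The gate left out dead cells, activated or regulatory T cells (CD25, CD44), γδ T cells and NK cells (NK1.1), and cells that stained for the myeloid markers Mac-1 and Gr1 or the B-cell and antigen presentation markers MHC II and B220. The other libraries are MHC I high cells of the same mice, a later stage, and both fractions of 3 Sharpin cpdm mice, whose germline mutation removes SHARPIN from every cell type. The Sharpin cpdm mice came from a C57BL/Ka stock with few backcrosses to C57BL/6, so strain and genotype cannot be told apart in comparisons with them.

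HOIL-1, HOIP and SHARPIN form the linear ubiquitin chain assembly complex (LUBAC). Linear chains recruit the IKK kinase complex, which phosphorylates IκB proteins and so marks them for degradation by the proteasome, and NF-κB dimers are then free to enter the nucleus, and they also hold back death signalling from TNF receptors. NF-κB induces its own inhibitors, such as IκBα (*Nfkbia*) and A20 (*Tnfaip3*), so that these transcripts report its activity. CD69 marks thymocytes with a recent T-cell receptor (TCR) signal, and surface MHC I rises as selected cells mature.

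The libraries held between 11805778 and 15918097 reads on genes, and the pairs of replicates differed by 4.12 to 9.29 times the sampling variance. Hoil ΔCd4 mice 1 and 2 were male and mouse 3 was female by *Xist* and *Ddx3y*, while all 3 WT mice were female, so sex and genotype are partly confounded. The quality weights of the Hoil ΔCd4 libraries (0.6282 to 0.7889) lay below those of the WT libraries (0.9633 to 1.324). Markers of the sorted population were present in both groups, with *Cd69* at 383, 430.1 and 399 CPM in WT and 402, 379 and 464 CPM in Hoil ΔCd4 libraries, and *Cd4*, *Cd8a*, *Cd8b1*, *Cd3e*, *Cd5*, *Rag1*, *Ccr7* and *S1pr1* did not pass the test (adjusted p from 0.0867 for *Cd4* to 0.983 for *S1pr1*). In sorted cells, a smaller share of cells of one kind and less RNA per cell cannot be told apart. Summed markers of B cells lay at 6.16 to 6.80 CPM in WT and 5.42 to 7.71 CPM in Hoil ΔCd4 libraries, with *Pax5* at 0 in all 6. Those of myeloid and dendritic cells lay at 34.6 to 39.5 and 32.7 to 40.7 CPM, with *S100a8* and *S100a9* at 0. Those of thymic epithelium and stroma lay at 163 to 195 and 146 to 177 CPM, with *Krt8*, *Krt14* and *Foxn1* at 0, and *Ly75*, which lymphoid and dendritic cells also express, was the only 1 of them called (−0.53, adjusted p = 0.0295, up to 0.215 without Hoil ΔCd4 mouse 2 or 3 or WT mouse 1 or 3). Those of erythroid cells lay at 3.88 to 5.10 and 3.18 to 3.66 CPM, and those of NK and γδ T cells at 226 to 246 and 190 to 241 CPM with *Ncr1* at 0. Markers of double-negative thymocytes, which precede the DP stage, lay at 277 to 308 and 240 to 257 CPM, without overlap. Of the 11 tested, 9 had a negative log2 fold change. Only *Il2ra*, which is taken up with the NF-κB induced genes, was called. Their median relative to WT was −0.14, −0.16 and −0.20 in Hoil ΔCd4 mice and −0.04 to 0.05 in WT mice. *Pecam1* made up most of the sum for thymic epithelium and stroma. *Id2* did so for NK and γδ T cells and *Notch1* for double-negative thymocytes. The part of other cell types in the results was not tested.

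The change in *Rbck1* itself checks the labels. *Rbck1* (chromosome 2, 152316334 to 152332663, GRCm38) gave 229, 221 and 217 CPM in the WT libraries and 0.581, 0.778 and 0.271 CPM in the Hoil ΔCd4 libraries. These are 3579, 3459 and 2777 reads against 8, 9 and 4 reads, a log2 fold change of −8.63 ± 0.288 (SE, adjusted p = 5.29e-09, limma). The loss was thus near complete in every Hoil ΔCd4 library. The transcripts of the other LUBAC components did not pass the test, with log2 fold changes of −0.04 ± 0.0676 for *Rnf31* (HOIP, adjusted p = 0.887) and 0.17 ± 0.0749 for *Sharpin* (adjusted p = 0.397). Of 14 genes of LUBAC and linear ubiquitin only *Rbck1* and *Tnfaip3* were called.

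In all, 126 genes were called at an adjusted p-value under 0.05, 0.985% of the genes tested, with 54 higher (0.422%) and 72 lower (0.563%) in Hoil ΔCd4 cells. The 3 Hoil ΔCd4 values did not overlap the 3 WT values in 52 of the 54 and in 70 of the 72 genes, while over all genes tested 7.07% lay entirely above and 7.62% entirely below WT. Changes were mostly small. The median log2 fold change was 0.68 among the higher and −0.47 among the lower genes, 16 and 15 of them changed at least 2-fold, and 23 and 47 changed less than 1.5-fold. The lower genes included inhibitors and subunits of NF-κB. At least 1 of the gene lists examined held 8 of the 54 higher genes, 33 of the 72 lower genes and 655 of all 12798 genes tested. The lists were chosen with earlier results of these data known, so these shares are a description and not a test. Without single libraries between 61 and 148 genes were called. With sex as a covariate 106 of the 126 stayed called. Leaving out the male mice leaves 1 Hoil ΔCd4 mouse against the same 3 WT mice. Calls were then lost, those of *Nfkb1*, *Tnfaip3*, *Ltb*, *Bcl2l11*, *Myc*, *Il7r* and *Myb* among them, and all 126 genes kept their sign. For the genes without overlap between the groups that sign was all but fixed in advance, so it cannot separate sex from genotype.

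**Figure D1:**
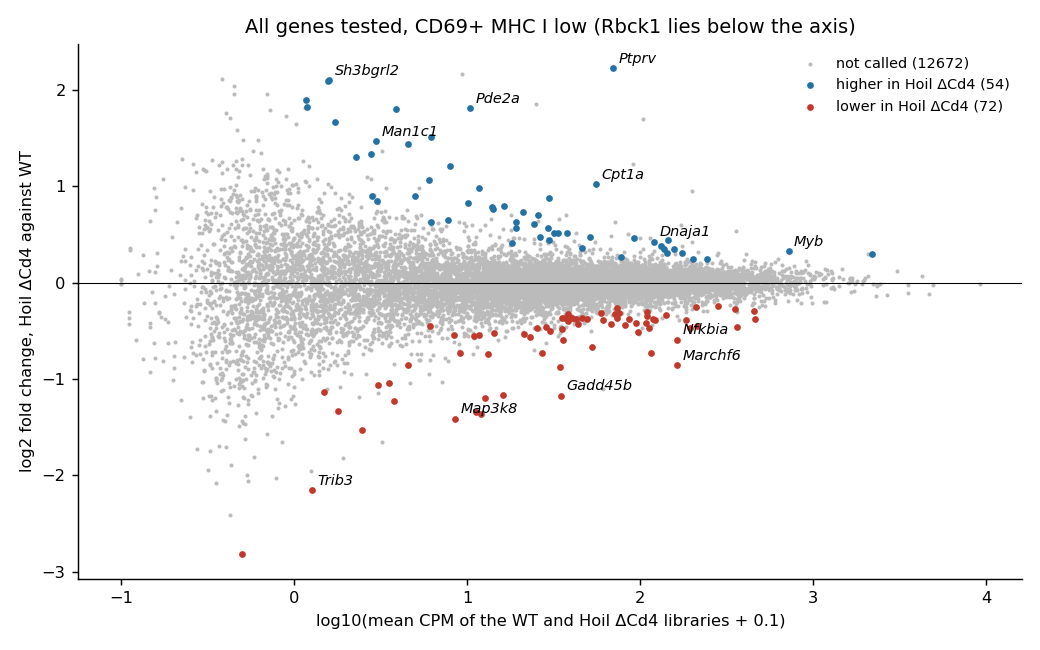
Log2 fold change of each of the 12798 genes (y axis, Hoil ΔCd4 against WT, CD69+ MHC I low) against its mean level on a log10 scale (x axis, CPM). The 54 higher genes are blue, the 72 lower genes red, and the remaining genes grey, with *Rbck1* at −8.63 outside the plotted range.

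Promoters of called NF-κB feedback genes and of *Ctss*, picked from those with a match, are shown for the κB and interferon-response sequences they hold. Each line gives the 250 bases before a RefSeq transcription start (GRCm38.p6, 5′ to 3′ on the strand of the gene). Capitals mark matches on either strand to the κB consensus in the first 4 and to the core of the interferon-stimulated response element (ISRE; GAAA, any 2 bases, GAAA) in *Ctss*, the gene of the protease cathepsin S. The *Nfkb2* stretch lies inside the longest RefSeq model of the gene, upstream of its shorter models.
Nfkbia (chr12:55492648-55492897, minus strand): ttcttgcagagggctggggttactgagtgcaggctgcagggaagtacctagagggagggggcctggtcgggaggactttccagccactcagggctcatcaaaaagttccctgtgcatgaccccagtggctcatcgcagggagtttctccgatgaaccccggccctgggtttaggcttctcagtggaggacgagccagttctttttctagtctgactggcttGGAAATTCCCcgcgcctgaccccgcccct
Nfkb2 (chr19:46304487-46304736, plus strand): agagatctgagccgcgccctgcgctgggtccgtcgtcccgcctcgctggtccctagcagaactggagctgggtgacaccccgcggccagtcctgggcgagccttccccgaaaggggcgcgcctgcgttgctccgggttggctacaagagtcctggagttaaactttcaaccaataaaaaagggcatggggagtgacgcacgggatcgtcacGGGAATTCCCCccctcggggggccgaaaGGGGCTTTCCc
Tnfaip3 (chr10:19015411-19015660, minus strand): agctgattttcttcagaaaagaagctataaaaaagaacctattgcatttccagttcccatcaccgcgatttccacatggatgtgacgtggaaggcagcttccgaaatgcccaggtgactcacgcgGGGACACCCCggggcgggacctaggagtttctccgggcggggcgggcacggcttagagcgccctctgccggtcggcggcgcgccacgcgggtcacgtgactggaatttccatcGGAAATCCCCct
Irf1 (chr11:53769764-53770013, plus strand): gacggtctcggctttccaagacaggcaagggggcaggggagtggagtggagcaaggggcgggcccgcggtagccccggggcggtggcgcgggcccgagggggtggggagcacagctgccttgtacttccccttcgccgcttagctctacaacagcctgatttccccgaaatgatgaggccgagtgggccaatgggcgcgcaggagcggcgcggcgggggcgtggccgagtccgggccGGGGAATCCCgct
Ctss (chr3:95526536-95526785, plus strand): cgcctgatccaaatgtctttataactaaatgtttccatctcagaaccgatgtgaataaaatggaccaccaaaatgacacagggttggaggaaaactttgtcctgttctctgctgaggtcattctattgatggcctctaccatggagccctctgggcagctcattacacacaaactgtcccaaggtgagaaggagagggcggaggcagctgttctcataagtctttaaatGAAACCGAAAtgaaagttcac

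The κB match of *Nfkbia* lies 29 to 20 bases before the start, and that of *Irf1* 13 to 4 bases before it. *Nfkb2* has 3 matches, 2 of which overlap and read as 1 longer run of capitals. RefSeq promoters (250 bases before to 50 after a start, 1 or more windows a gene) were at hand for 9985 of the 12798 genes. The κB consensus was found in 11 of the 55 lower genes with a promoter (20%), in 5 of 48 higher genes (10.4%) and in 6.22% of all genes with one. Lower genes with a match were *Nfkbia*, *Il2ra*, *Tnfaip3*, *Nfkb2*, *Irf1*, *Inf2*, *Ltb*, *Nfkbie*, *Trio*, *Slc35d3* and *Hpn*. Among NF-κB induced genes with a promoter, 7 of 16 called lower held the consensus (43.8%), and 21 of 65 of all tested (32.3%). Promoters of *Birc3*, *Gadd45b* and *Icam1* held none. The ISRE core was found in 6 of 55 lower (10.9%), 0 of 48 higher and 3.70% of all genes. The lower genes that held it were *Rbck1*, *Ctss*, *Rarg*, *Pcsk1*, *Apobec3* and *Csgalnact2*. The share thus counts *Rbck1*, the gene deleted by design, whose own promoter lies between the loxP sites. Of the 4 interferon-stimulated genes called, promoters of *Rtp4*, *Gbp9* and *Parp14* were not scanned, and that of *Lgals3bp* had no match. The calls of *Nfkbie*, *Trio*, *Slc35d3*, *Hpn*, *Rarg*, *Pcsk1*, *Apobec3* and *Csgalnact2* were each lost without at least 3 of the 6 libraries, with adjusted p up to 0.297 for *Csgalnact2*. The GAS motif (TTC, any 3 bases, GAA), also scanned, was found in 8 of 55 lower (14.5%), 2 of 48 higher (4.17%) and 8.23% of all genes. Called genes had more windows each (1.36 for lower, 1.56 for higher) than all genes (1.27), and a match is a match of letters, not a shown site.

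Among the inhibitors and subunits of NF-κB, 5 of 12 genes tested fell, 0 rose and the median log2 fold change was −0.306, against −0.001 over all genes. *Nfkbia*, which encodes IκBα, had 194, 185 and 212 CPM in WT and 133, 125 and 133 CPM in Hoil ΔCd4 libraries (log2 fold change −0.59 ± 0.0638, adjusted p = 5.90e-07, limma). *Nfkb2*, the gene of p100, had 201, 211 and 218 against 158, 156 and 164 CPM (−0.39 ± 0.0633, adjusted p = 0.000394). *Relb*, whose protein pairs with processed p100, had 111, 109 and 119 against 87.4, 74.8 and 77.1 CPM (−0.51 ± 0.076, adjusted p = 0.000158). In these 3 genes every Hoil ΔCd4 library lay below every WT library. *Nfkbie* (IκBε, −0.49) and *Nfkb1* (p105, −0.30) also fell. The call of *Nfkbie* was lost on leaving out Hoil ΔCd4 mouse 3, WT mouse 1 or WT mouse 3 (adjusted p up to 0.111), and that of *Nfkb1* on leaving out Hoil ΔCd4 mouse 2 or WT mouse 3 (up to 0.0796). *Rela*, the gene of the main activating subunit, had a log2 fold change of 0.04 (adjusted p = 0.887), and *Rel* of −0.32 (adjusted p = 0.0867). None of 19 kinases, adaptors and ubiquitin ligases upstream of NF-κB was called (median 0.010, smallest adjusted p 0.0805), with 4 at an unadjusted p under 0.05 in limma and 0 called by edgeR or DESeq2.

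The wider list of NF-κB induced genes had 85 genes tested, of which 21 fell and 1 rose, and 67 had a negative log2 fold change (median −0.162). The 5 lower inhibitors and subunits above count among the 21. Feedback and survival genes were also among the 21. *Tnfaip3*, the gene of the ubiquitin-editing enzyme A20, had 236, 230.5 and 273 CPM in WT and 180.2, 167 and 192 CPM in Hoil ΔCd4 libraries (−0.45 ± 0.0677, adjusted p = 0.000174). *Birc3*, which encodes cIAP2, had 93.5, 85.6 and 100.5 against 74.4, 64.8 and 67.9 CPM (−0.44 ± 0.069, adjusted p = 0.000318). *Gadd45b*, a stress response gene, had 44.2, 41.5 and 58.4 against 21.5, 19.2 and 22.9 CPM (−1.17 ± 0.152, adjusted p = 2.78e-05). *Gadd45b* thus changed over 2-fold and the others less than 1.5-fold, and WT mouse 3 was highest for all 3 genes.

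Adhesion, antigen presentation and signalling genes of the same list fell as well. *Icam1*, the adhesion ligand of LFA-1, had 66.0, 62.0 and 63.6 CPM in WT and 43.1, 41.2 and 37.5 CPM in Hoil ΔCd4 libraries (−0.66 ± 0.0823, adjusted p = 8.40e-06). *Map3k8*, which encodes the kinase TPL2 that p105 binds, had 11.7, 11.96 and 13.1 against 5.52, 3.37 and 4.75 CPM (−1.41 ± 0.164, adjusted p = 2.77e-06). *Cd74*, the invariant chain of MHC II, had 18.1, 17.6 and 15.7 against 7.12, 6.23 and 6.51 CPM (−1.36 ± 0.162, adjusted p = 8.04e-06). *Cd74* is also abundant in B cells and myeloid cells, whose part in its fall was not tested. Their summed markers overlapped between the groups, but *Cd79b* and *Cst3* made up most of these sums. Relative to WT, the median of the 7 myeloid and dendritic genes tested was −0.45, −0.25 and 0.02 in Hoil ΔCd4 mice. It was −0.04 to 0.09 in WT mice. That of the 4 B-cell genes was −0.01, 0.11 and 0.35, against −0.23 to 0.17. Outside the list, *Cd82*, a tetraspanin, fell from 144 ± 7.71 to 86.8 ± 1.77 CPM (SD, n = 3 each, adjusted p = 1.96e-05 in limma), and *Ctss* fell from 16.4 ± 1.19 to 9.78 ± 2.03 CPM (adjusted p = 0.000205, limma). *Cd274*, which encodes PD-L1, fell by 0.47 on the log2 scale (adjusted p = 0.0013).

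**Figure D2:**
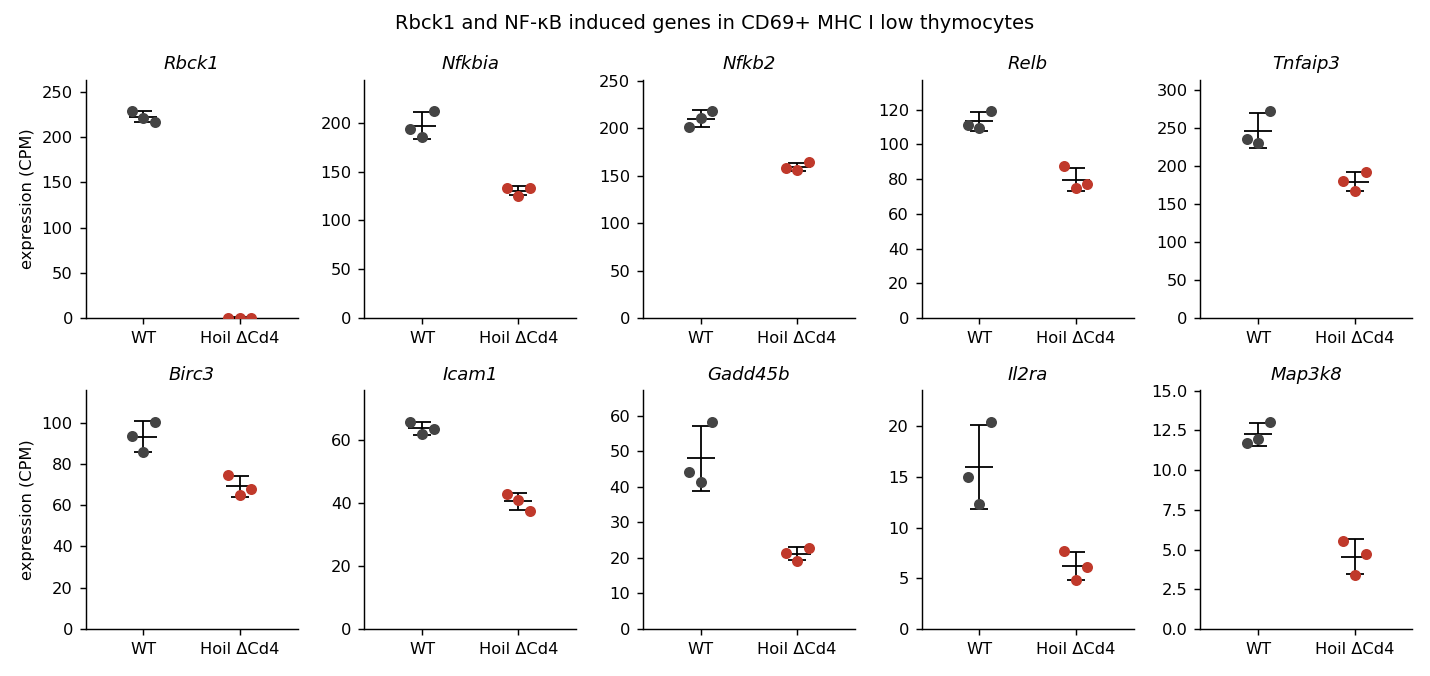
TMM-scaled CPM (y axis, from 0) of *Rbck1* and 9 NF-κB induced genes in each CD69+ MHC I low library of WT (grey) and Hoil ΔCd4 (red) mice, with the mean and SD of 3 mice as black bars. Every Hoil ΔCd4 point lies below every WT point in all 10 panels.

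In a list of TNF-family receptors, their ligands and the death complex they recruit, 5 of 34 genes tested were lower, *Birc3* among them, and 0 higher (median −0.121). All 5 are also in the list of NF-κB induced genes. *Tnfrsf4* (OX40) had 33.7, 33.1 and 33.6 CPM in WT and 21.5, 22.1 and 18.1 CPM in Hoil ΔCd4 libraries (−0.73 ± 0.118, adjusted p = 0.000586). *Tnfrsf18* (GITR), its neighbour on chromosome 4 at a distance of 9709 bases, had 67.2, 71.6 and 68.5 against 53.2, 51.0 and 53.7 CPM (−0.39 ± 0.0719, adjusted p = 0.00228). The spread within each group was small beside the difference in both genes. *Ltb* (lymphotoxin β, −0.34, adjusted p = 0.00228) and *Tnf* (−0.55, adjusted p = 0.0395) fell too. The call of *Tnf* was lost without any single library but that of Hoil ΔCd4 mouse 2, with adjusted p up to 0.384.

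The same 2 receptors stand among genes of regulatory T cells, of which 6 of 25 tested fell and 0 rose (median −0.259). The others were *Gadd45b*, *Relb*, *Il2ra* and *Lrrc32* (GARP, −1.33, adjusted p = 0.0377, up to 0.301 without any 1 library but that of Hoil ΔCd4 mouse 2), so that 5 of the 6 are also in the list of NF-κB induced genes. *Il2ra*, which encodes CD25, had 15.1, 12.3 and 20.5 CPM in WT and 7.70, 4.84 and 6.11 CPM in Hoil ΔCd4 libraries (−1.34 ± 0.193, adjusted p = 8.76e-05), although the gate removed cells with surface CD25 from both groups. *Foxp3*, the lineage factor, was near the detection limit with 1.09, 0.640 and 0.547 CPM against 0.944, 1.04 and 0.882 CPM and did not pass the test (0.31 ± 0.307, adjusted p = 0.771). The median of the list lay between −0.39 and −0.27 in the 3 Hoil ΔCd4 mice and between −0.07 and 0.08 in WT mice.

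Interferon-stimulated genes had mostly negative log2 fold changes, and few passed the test. Of 82 tested, 4 fell and 0 rose (*Rtp4*, *Gbp9*, *Lgals3bp* and *Parp14*), 72 had a negative log2 fold change and the median was −0.249. *Rtp4*, a receptor chaperone induced by interferon, had 27.8, 27.4 and 26.6 CPM in WT and 21.1, 16.4 and 17.9 CPM in Hoil ΔCd4 libraries (−0.56 ± 0.115, adjusted p = 0.012). *Gbp9*, a guanylate-binding GTPase, had 231, 216 and 223 against 200.1, 148 and 143 CPM (−0.47 ± 0.0965, adjusted p = 0.018). Hoil ΔCd4 mouse 1 lay nearest to WT in both genes, and the median of the list was −0.07 in mouse 1, −0.39 in mouse 2 and −0.28 in mouse 3. The number called lower was 0 without Hoil ΔCd4 mouse 2, 1 without Hoil ΔCd4 mouse 3, 1 without WT mouse 1, 2 without WT mouse 3 and 6 without Hoil ΔCd4 mouse 1 or WT mouse 2, and the median stayed between −0.323 and −0.205. Without 1 library the largest adjusted p was 0.0895 for *Rtp4*, 0.112 for *Gbp9*, 0.126 for *Lgals3bp* and 0.153 for *Parp14*.

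Upstream of these genes, *Irf1*, a transcription factor induced by interferon and NF-κB, had 129, 114 and 124 CPM in WT and 105, 91.2 and 82.5 CPM in Hoil ΔCd4 libraries (−0.42 ± 0.0716, adjusted p = 0.000786). It was the only 1 of 19 interferon receptors and transducers called. *Irf7* (−0.29, adjusted p = 0.263) and *Irf9* (−0.20, adjusted p = 0.130) did not pass. In the list of MHC class I presentation, 21 of 25 genes had a negative log2 fold change (median −0.139) and *Tapbp*, the gene of tapasin, was called, with 234, 221 and 231 against 197, 177 and 201 CPM (−0.26 ± 0.0647, adjusted p = 0.0445, up to 0.251 without any 1 library but that of WT mouse 2). *H2-K1* (−0.23, adjusted p = 0.104), *B2m* (−0.16, adjusted p = 0.270) and *H2-D1* (−0.01, adjusted p = 0.986) were not. The cells were sorted on surface MHC I, so the gate bears directly on the levels of these genes.

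**Figure D3:**
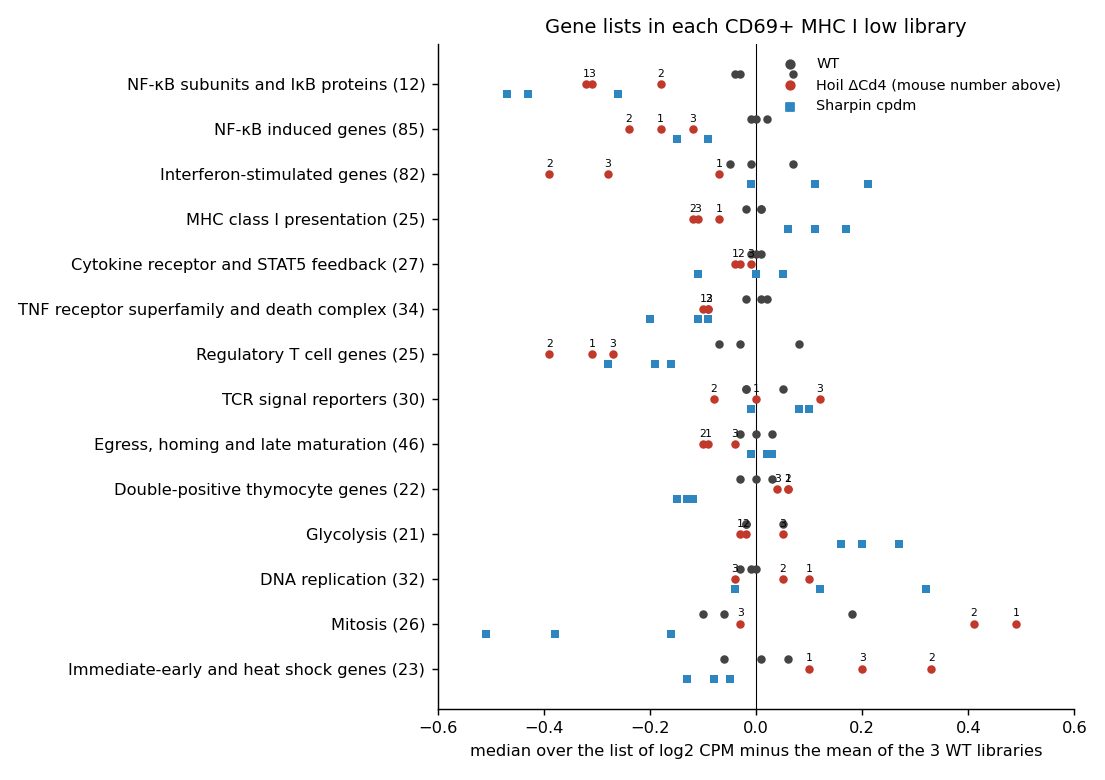
Median over each gene list (number of genes in brackets) of the log2 CPM minus the mean of the 3 WT libraries (x axis), 1 point per CD69+ MHC I low library of WT (grey), Hoil ΔCd4 (red, mouse number above) and Sharpin cpdm (blue squares) mice. Hoil ΔCd4 mouse 1 lies at −0.07 for interferon-stimulated genes, and mouse 3 at −0.03 for mitosis genes, apart from the other Hoil ΔCd4 mice.

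Cytokine receptor genes and targets of STAT5 had 4 of 27 lower and 1 higher. The 4 lower genes, *Il2ra* among them, are all in the list of NF-κB induced genes as well. *Pim1*, a kinase gene induced by cytokines, had 41.9, 41.6 and 44.1 CPM in WT and 29.6, 30.02 and 25.5 CPM in Hoil ΔCd4 libraries (−0.60 ± 0.0976, adjusted p = 0.000463). *Il7r*, the receptor of the survival cytokine IL-7, had 390.0, 367 and 394 against 314, 317 and 325 CPM (−0.27 ± 0.0559, adjusted p = 0.00807). *Myc*, which drives growth, had 75.2, 81.9 and 77.9 against 56.1, 57.4 and 59.5 CPM (−0.43 ± 0.0903, adjusted p = 0.0136). The groups did not overlap for any of them. *Bcl6*, a transcriptional repressor, rose, with 126, 127 and 132 against 148, 166 and 161 CPM (0.31 ± 0.0731, adjusted p = 0.0301). *Cish* (−0.36, adjusted p = 0.216), *Il2rb* (0.06, adjusted p = 0.838) and *Cxcr4* (−0.23, adjusted p = 0.416) did not pass. The largest adjusted p without 1 library was 0.0577 for *Il7r* (lost without Hoil ΔCd4 mouse 3, WT mouse 1 or WT mouse 3), 0.0695 for *Myc* (Hoil ΔCd4 mice 2 and 3, WT mouse 1) and 0.153 for *Bcl6* (any but Hoil ΔCd4 mouse 1).

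In each metabolic list no more than 2 genes were called. *Cpt1a*, which encodes the enzyme that admits long-chain fatty acids to mitochondria, had 30.9, 41.8 and 38.6 CPM in WT and 73.5, 70.7 and 75.7 CPM in Hoil ΔCd4 libraries, a 2.03-fold rise (log2 fold change 1.02 ± 0.101, adjusted p = 3.55e-07). It was the only gene called of 30 in fatty acid oxidation, whose median was 0.080. *Marchf6*, the gene of a ubiquitin ligase of the endoplasmic reticulum that turns over enzymes of sterol synthesis, had 223, 202 and 206 against 109, 118 and 124 CPM and the smallest p-value of all genes (−0.85 ± 0.067, adjusted p = 1.41e-09). None of the other 37 genes of sterol synthesis and uptake was called. Of 21 glycolysis genes, the lactate exporter *Slc16a3* rose (0.76, adjusted p = 0.0325) and the glucose transporter *Slc2a3* fell (−0.30, adjusted p = 0.0185), and the median was 0.006. Leaving out 1 library gave adjusted p up to 0.282 for *Slc16a3* (lost without Hoil ΔCd4 mice 2 and 3, WT mice 1 and 2) and up to 0.0951 for *Slc2a3* (any but WT mouse 2).

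Several other genes rose by more than 2-fold. *Ptprv*, a transcribed pseudogene of a receptor phosphatase and a known target of p53, had 24.1, 22.3 and 25.2 CPM in WT and 85.9, 101 and 158 CPM in Hoil ΔCd4 libraries (4.68-fold, log2 fold change 2.23 ± 0.198, adjusted p = 3.05e-05). Of 43 p53 targets tested, *Ptprv* and *Tnfrsf18* (lower) were called and 5 had an unadjusted p under 0.05, with a median of 0.014. *Pde2a*, a phosphodiesterase of cyclic nucleotides, had 4.99, 3.84 and 4.22 against 14.1, 10.1 and 24.7 CPM (1.81 ± 0.232, adjusted p = 6.79e-05). *Man1c1*, a Golgi mannosidase, had 1.601, 1.22 and 1.64 against 5.08, 3.63 and 4.07 CPM (1.47 ± 0.2, adjusted p = 3.42e-05). *Prr5l*, which binds mTORC2, had 4.16, 3.96 and 6.02 against 10.96, 11.8 and 10.1 CPM (1.22 ± 0.179, adjusted p = 0.000116). The Hoil ΔCd4 values of *Ptprv* and *Pde2a* were widely spread and highest in mouse 3, while those of *Prr5l* and *Cpt1a* were tight. *Gramd3*, whose product carries a GRAM domain, fell from 24.8, 19.4 and 22.4 to 9.95, 10.4 and 9.63 CPM (−1.16 ± 0.107, adjusted p = 2.25e-08). *Slc29a1*, a nucleoside transporter (0.44), *Itgb8*, an integrin that activates TGF-β (1.51), *Cd55*, a complement regulator (1.83), *Trpm1* (0.70), *Sh3bgrl2* (2.11), *1810030O07Rik* (0.38) and *Adamtsl2* (0.65) were also among the 15 higher genes with the smallest p-values.

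**Figure D4:**
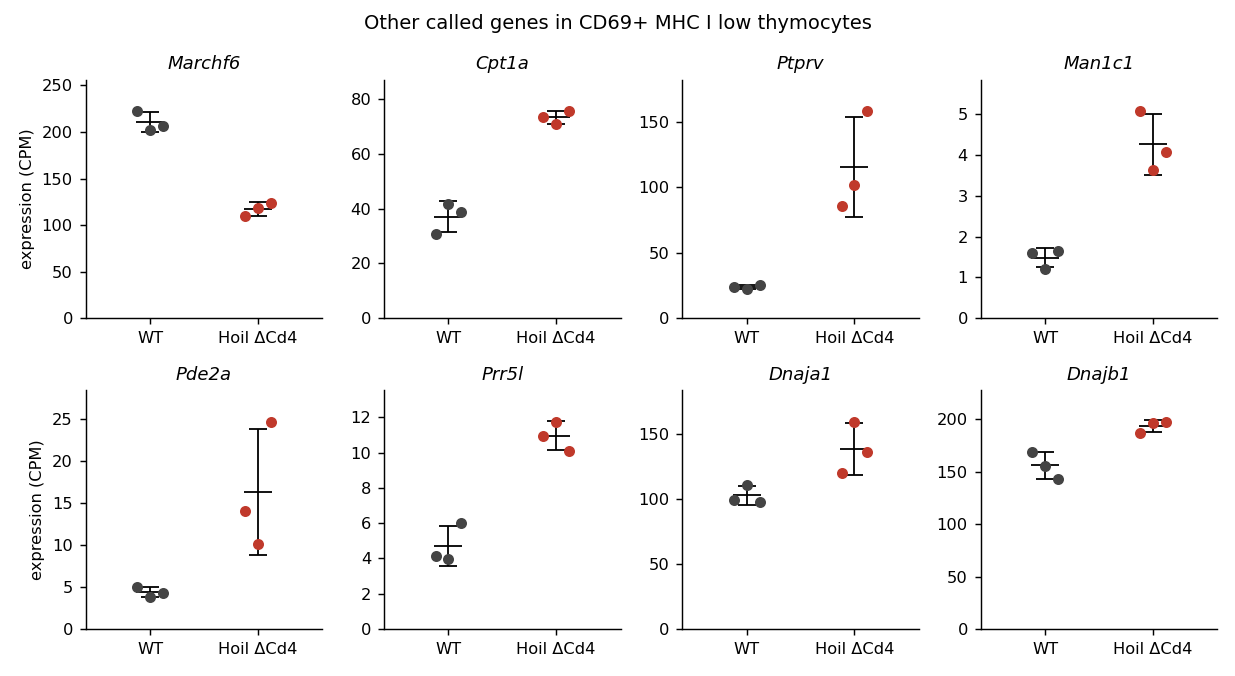
TMM-scaled CPM (y axis, from 0) of 2 metabolic genes, 4 further genes of large change and 2 co-chaperones in each CD69+ MHC I low library of WT (grey) and Hoil ΔCd4 (red) mice, with the mean and SD of 3 mice as black bars. *Marchf6* is lower and the other 7 genes are higher in every Hoil ΔCd4 library than in any WT library.

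Among 23 immediate-early and heat shock genes 2 rose and 0 fell (median 0.151). *Dnaja1* had 99.0, 111 and 97.7 CPM in WT and 119.9, 159 and 136 CPM in Hoil ΔCd4 libraries (0.43 ± 0.0807, adjusted p = 0.00272), and *Dnajb1* had 169, 156 and 143 against 187, 196 and 198 CPM (0.31 ± 0.0794, adjusted p = 0.0476). Both encode partners of HSP70. *Hspa4l* (0.35), *Bag2* (0.90) and *Ahsa2* (0.56), chosen for naming after their values were seen, were higher too. The inducible HSP70 genes *Hspa1a* (8.39, 12.2 and 10.2 against 33.5, 57.1 and 27.6 CPM) and *Hspa1b* (35.7, 55.6 and 51.1 against 131, 227 and 119 CPM) lay apart without overlap but did not pass (adjusted p = 0.359 and 0.284). Without male mice both were called (adjusted p = 0.000949 and 0.00553), and *Hspa1a* also with the 6 libraries fitted alone (0.0175), while sex as a covariate gave 0.503 and 0.385. These 2 genes are near-identical copies whose reads the counting could split. The call of *Dnajb1* was lost without any Hoil ΔCd4 mouse, WT mouse 2 or WT mouse 3 (adjusted p up to 0.233), and those of *Hspa4l*, *Bag2* and *Ahsa2* without at least 4 of the 6 libraries (up to 0.161, 0.247 and 0.298). The heat shock element (GAA, any 2 bases, TTC, any 2 bases, GAA) was found in the promoter of 1 of 48 higher genes, *Slc29a1*, and in 0.531% of all genes.

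Reporters of TCR signal strength were mixed, with *Pdcd1* (PD-1, 0.35, adjusted p = 0.0248) higher and *Bcl2l11* (BIM, −0.37, adjusted p = 0.00234), *Irf4* (−0.38, adjusted p = 0.0277) and *Dusp5* (−0.35, adjusted p = 0.0387) lower among 30 (median 0.024). *Bcl2l11*, which encodes a pro-apoptotic protein needed to delete self-reactive thymocytes, had 517, 488 and 551 CPM in WT and 374, 404 and 428 CPM in Hoil ΔCd4 libraries, and it was the only gene called of 20 in the BCL-2 family. The calls of *Pdcd1*, *Irf4* and *Dusp5* were each lost without at least 4 of the 6 libraries (adjusted p up to 0.156, 0.183 and 0.153). *Myb*, a factor of early thymocytes, rose from 617, 639 and 659 to 787, 826 and 795 CPM (0.32 ± 0.0653, adjusted p = 0.00605) and was the only call among 24 genes of CD4 and CD8 lineage choice. Leaving out WT mouse 1 ended its call (adjusted p = 0.0667). None of 25 genes of the CD3 complex and proximal kinases and none of 22 DP genes was called (smallest adjusted p 0.217 and 0.145 in limma, 7 of each list at an unadjusted p under 0.05, and 0 called by edgeR or DESeq2), and of 46 genes of egress, homing and late maturation only *Il7r* was (median −0.085).

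Genes of mitosis were uneven between mice. None of 26 was called by limma (smallest adjusted p 0.0905, *Kif11*) or edgeR and 1 by DESeq2, with 9 at an unadjusted p under 0.05, although 25 had a positive log2 fold change and the median was 0.340. The median was 0.49 in Hoil ΔCd4 mouse 1, 0.41 in mouse 2 and −0.03 in mouse 3, and −0.10 to 0.18 in WT mice. Mice 1 and 2 were the male animals, so that sex and the level of these genes cannot be told apart. *Racgap1* (0.42, adjusted p = 0.0345) and *Nek2* (0.85, adjusted p = 0.0419), which act in cell division and are outside the list, were called, and were named after their values were seen. *Racgap1* lost its call without any library but WT mouse 3 (up to 0.239), and *Nek2* without Hoil ΔCd4 mice 1 and 2 and WT mice 1 and 2 (up to 0.178). Both calls were also lost with sex as a covariate (adjusted p = 0.0566 for *Racgap1* and 0.14 for *Nek2*) and without male mice (0.148 and 0.636, with *Nek2* at a log2 fold change of 0.365). None of 32 DNA replication genes was called by limma, edgeR or DESeq2 (median 0.007, 2 at an unadjusted p under 0.05).

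Around the deleted gene, 24 other genes within 1 Mb were tested and 2 were called. *Trib3*, a pseudokinase gene of the stress response, lies 4762 bases from *Rbck1* and had 34, 33 and 19 reads in WT and 10, 3 and 4 reads in Hoil ΔCd4 libraries (log2 fold change −2.16 ± 0.407, adjusted p = 0.0027). *Pofut1*, which glycosylates Notch, was lower by less (−0.32, adjusted p = 0.0421, up to 0.386 without any 1 library but that of WT mouse 2). The uncalled 22 ranged from −1.07 to 0.35. The read counts of *Trib3* were low in every library, and its log2 fold change was −2.37 at the MHC I high stage (adjusted p = 0.000111). Other called genes lay within 1 Mb of each other, also in pairs of opposite direction such as *Nfkbie* and *Slc29a1*. Among these groups, *Fam177a* (1.80), *Fam177a2* (1.44) and *Srp54c* (0.47) were higher on chromosome 12, the last of them 210078 bases from *Nfkbia*. The zinc finger genes *Zfp966* (1.90) and *Zfp967* (2.09) were higher on chromosome 2. *Zfp971* (−0.87), lower on the same chromosome, had no called gene within 1 Mb. The call of *Srp54c* was lost without Hoil ΔCd4 mice 1 and 3 and WT mice 1 and 2 (adjusted p up to 0.253), and that of *Zfp966* without WT mouse 1 (0.0601). Members of the chromosome 12 group are alike in sequence, as are these zinc finger genes, so their counts are uncertain. *Fam177a2* (1.16, adjusted p = 0.000891) and *Zfp971* (−1.12, adjusted p = 1.41e-06) also differed between Sharpin cpdm and WT cells. So did *Nnt*, a mitochondrial transhydrogenase whose gene differs between C57BL/6 substrains, with 43.0 ± 4.29 CPM in WT, 59.9 ± 6.84 CPM in Hoil ΔCd4 and 81.5 ± 1.34 CPM in Sharpin cpdm cells. The part of genetic background in these results was not tested.

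At the next stage, 851 genes (6.65%) differed between Hoil ΔCd4 and WT MHC I high cells. Of the genes called in MHC I low cells, 27 of the 54 higher and 41 of the 72 lower were called in the same direction in MHC I high cells of the same mice, and 0 in the opposite direction. The change itself differed between stages in 51 genes of all tested (0.398%), among them 7 of the 126. *Man1c1* and *Sh3bgrl2* had the larger change at the early stage, with log2 fold changes of 1.47 and 2.11 there and of 0.14 and 0.16 at the later one (adjusted p of the difference 0.00805 and 0.00481). *Sh3bgrl2* was near the floor in WT MHC I low libraries, with 0.512, 0.576 and 0.469 CPM and at most 9 reads. Hoil ΔCd4 MHC I low libraries had 2.69, 2.25 and 2.44 CPM and at most 37 reads. *Pim1* (−0.60 and 0.04, adjusted p = 0.00805) and *Map3k8* (−1.41 and −0.48, adjusted p = 0.0258) were changed more at the early stage, as were *Tiam1*, an activator of Rac (−0.38 and 0.05, adjusted p = 0.0438, its early call lost without Hoil ΔCd4 mouse 2 or 3 or WT mouse 1, with adjusted p up to 0.123), and *Adamtsl2* (0.65 and 0.03, adjusted p = 0.0441). *Rbck1* differed as well, since its Hoil ΔCd4 level was 0.544 ± 0.256 CPM in MHC I low and 5.72 ± 2.81 CPM in MHC I high cells. edgeR's quasi-likelihood test called 1 gene for the difference between stages in place of 51.

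Whether the called genes differ between the MHC I low and MHC I high fractions was read from the Sharpin cpdm libraries, whose levels did not enter the comparison that called them. Over this step, 45 of the 72 lower genes rose in Sharpin cpdm mice (62.5%, against 27.2% of all genes tested) and 14 fell (19.4%, against 27.4%). Of the 54 higher genes, 24 fell (44.4%) and 17 rose (31.5%). The shares were not matched for level, and the median in WT MHC I low cells was 47.8 CPM for lower and 15.7 CPM for higher genes. Over all genes tested it was 28.3 CPM. Among the lower genes, *Ctss* (2.93), *Irf1* (1.29), *Rtp4* (1.27), *Slc15a1*, a peptide transporter (1.27) and *Cd74* (1.11) had large log2 rises between the fractions, while *Gadd45b* (−1.15), *Il7r* (−0.45) and *Tnfaip3* (−0.45) fell. *Bcl6* (−1.76), called higher in Hoil ΔCd4 cells, fell, and *Man1c1* (2.09) rose.

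The MHC I low cells of both mutants were also compared directly, which called 1213 genes (9.48%), 655 (5.12%) higher and 558 (4.36%) lower in Hoil ΔCd4 cells. The count was 653 without Hoil ΔCd4 mouse 1 and 799 without mouse 2. Sharpin cpdm mice 1 and 3 were male and mouse 2 was female by *Xist* and *Ddx3y*, so leaving out male mice leaves 1 library of each mutant. Of the 12 NF-κB inhibitors and subunits, limma called 0, with 6 at an unadjusted p under 0.05, edgeR called 2 and DESeq2 called 1. *Nfkbia* was at 130.3 ± 4.60 CPM in Hoil ΔCd4 and 119 ± 9.40 CPM in Sharpin cpdm cells (log2 difference 0.14, adjusted p = 0.187), and *Il2ra* at 6.22 ± 1.43 and 5.96 ± 0.952 CPM (0.02, adjusted p = 0.963). Interferon genes differed, with 29 of 82 interferon-stimulated genes lower and 1 higher in Hoil ΔCd4 cells, and 11 of 25 MHC class I presentation genes lower and 0 higher. *Rtp4*, for example, was at 18.4 ± 2.40 against 32.2 ± 6.18 CPM (−0.82, adjusted p = 7.10e-05). *Marchf6* (117 ± 7.38 against 212 ± 12.9 CPM), *Ptprv* (115 ± 38.2 against 21.0 ± 2.59 CPM) and *Il7r* (318 ± 5.72 against 462 ± 11 CPM) also differed between the mutants (adjusted p = 2.81e-10, 4.54e-06 and 1.47e-07, limma). *Myc* stood at 57.7 ± 1.70 against 79.8 ± 9.11 CPM (−0.45, adjusted p = 0.00255) and *Cpt1a* at 73.3 ± 2.50 against 46.2 ± 2.28 CPM (0.65, adjusted p = 0.000147). *Dnaja1* was at 138 ± 19.8 against 77.3 ± 2.99 CPM (0.81, adjusted p = 7.91e-08), 6 of 23 heat shock and immediate-early genes and 15 of 26 mitosis genes were higher in Hoil ΔCd4 cells, and 0 of either list was lower. The mitosis medians relative to WT were −0.51, −0.38 and −0.16 in the Sharpin cpdm libraries, against 0.49, 0.41 and −0.03 in the Hoil ΔCd4 libraries.

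**Figure D5:**
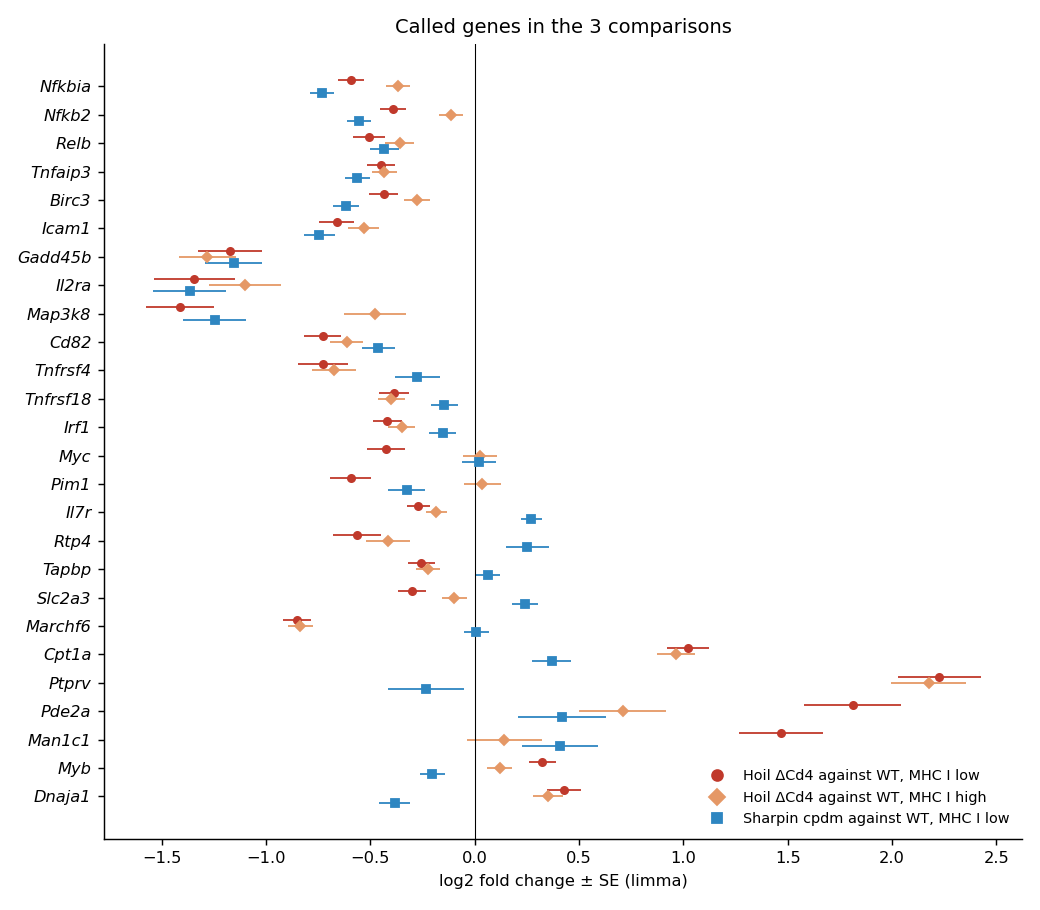
Log2 fold change ± SE (x axis, limma) of 26 called genes for Hoil ΔCd4 against WT in MHC I low (red circles) and MHC I high cells (orange diamonds) and for Sharpin cpdm against WT in MHC I low cells (blue squares). The red and blue values share the 3 WT libraries. *Nfkbia* lies left of 0 in all 3 comparisons, and *Il7r* at −0.27, −0.18 and 0.27.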

How the data were processed

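Sorted CD69+ thymocytes, MHC I low and MHC I high, from 3 mice of each genotype (WT, Sharpin cpdm, Hoil ΔCd4) were sequenced as single-end reads. The authors aligned reads to mm10 with subread, then assigned them to genes by featureCounts with the inbuilt RefSeq annotation. The deposited values are whole-number counts without normalization, with the exonic gene length as given. Strand and multi-mapping settings are not given in the sources used here, so antisense, overlapping and near-identical genes are uncertain. Groups came from the sample labels. Entrez Gene IDs were matched to RefSeq (GRCm38.p6), which 1904 of 27179 IDs (0.655% of counts) lacked.

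The test followed the study's methods. A gene was kept when 3 or more libraries reached 0.5 CPM. Genes lacking a symbol, predicted genes, *Xist* and those of chromosome Y were left out. TMM-scaled log2 CPM (prior count 1) of all 18 libraries entered 1 limma model of 6 groups with quality weights, the mouse as a random block (correlation 0.224), and a trended, robust empirical Bayes step. The Benjamini-Hochberg adjustment ran over 12798 genes, and each adjusted p given here for a single gene is from this limma fit. Levels are TMM-scaled CPM. Some genes are not reported here. Fold changes compress at low counts because of the prior. The mice are separate animals, but the sources used here do not say whether they were littermates. Named were the LUBAC genes, every called member of the gene lists, the 15 called genes a direction with the smallest p-values and no overlap, genes named by the study, sort markers and neighbours of *Rbck1*. Members and lists were chosen with earlier results of these data known. Versions were limma 3.58.1 (with statmod 1.5.0), DESeq2 1.42.0 and edgeR 4.0.16 in R 4.3.3. The limma and edgeR fits, but not DESeq2, were also run on simulated counts, which held no mouse or sex effect. The 19 alternatives were DESeq2, the quasi-likelihood test of edgeR, library size in place of TMM, 2 other filters on low counts, predicted genes kept, no quality weights, no mouse block, the mouse number as a block, only the 6 libraries, a prior count of 3, sex as a covariate, male mice left out and each of the 6 libraries left out.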

Additional observations from a re-analysis of the deposited data

Results flagged for a closer look

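The difference of the Hoil ΔCd4 effect between stages (MHC I high minus MHC I low, log2) passed limma's interaction test in 7 genes called in MHC I low cells. It was 3.07 for *Rbck1*, 0.93 for *Map3k8*, 0.63 for *Pim1* and 0.43 for *Tiam1*. It was −1.95 for *Sh3bgrl2*, −1.33 for *Man1c1* and −0.62 for *Adamtsl2*. The call for *Rbck1* held in all 17 alternatives that could be fitted for it, those for *Pim1* and *Man1c1* in 14 of 18, that for *Sh3bgrl2* in 14 of 17, that for *Map3k8* in 10, that for *Tiam1* in 9 and that for *Adamtsl2* in 8 of 18.

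Outside the genes tested, *Ddx3y* on chromosome Y reached 420 CPM in Hoil ΔCd4 mouse 2 and 366 CPM in mouse 1, against 0.199 CPM in mouse 3 and at most 0.0777 CPM in WT libraries. X-linked genes that escape inactivation had medians of −0.37 and −0.38 in these 2 male mice and −0.01 in mouse 3, and 0 of 11 were called.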

How the results depend on the processing

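The 126 called genes kept their direction in every alternative that tested them (18 of the 19 for 10 genes, *Rbck1* among them, and 19 for the rest), and 38 of them were called in each, among them *Nfkbia*, *Nfkb2*, *Relb*, *Birc3*, *Icam1*, *Gadd45b*, *Il2ra*, *Map3k8*, *Marchf6* and *Cpt1a*. Where the groups did not overlap, leaving out libraries could hardly change the direction. The cause was not tested for any count below that moved. The count was 198 with DESeq2 (96 higher) and 224 without male mice, where 1 Hoil ΔCd4 mouse is left and is assumed to vary like the other groups (164 lower). With sex as a covariate 111 genes were lower. Without the filter 33 genes were higher. With 1 library left out the count lay between 61 and 148 (higher 23 to 52, lower 33 to 100), at 61 without Hoil ΔCd4 mouse 3, 62 without WT mouse 1 and 79 without Hoil ΔCd4 mouse 2. The difference between stages called 1 gene with edgeR (1338 at an unadjusted p under 0.05 in limma), 20 with DESeq2, 1 without the filter, 29 without weights, 6 without the mouse block, 23 without male mice and 16 to 51 with 1 library left out. The comparison with Sharpin cpdm called 310 genes without male mice and 653 to 1191 with 1 library left out. Interferon-stimulated genes called lower were 2 with edgeR, 8 with DESeq2, 2 without the filter, 2 with sex as a covariate, 15 without male mice and 0 to 6 with 1 library left out. NF-κB induced genes called lower stayed between 16 and 24. *Rnf31* turned from −0.04 to 0.003 without male mice and to 0.044 without Hoil ΔCd4 mouse 1 (lowest −0.093, without Hoil ΔCd4 mouse 2), uncalled throughout. Same-numbered Hoil ΔCd4 and WT libraries had correlations of 0.0804, 0.0945 and 0.00365. The 2 fractions of the same mouse had 0.0702 (WT mouse 1) to 0.256 (Sharpin cpdm mouse 1). These ranges overlap, so they cannot tell whether the mouse numbers pair the groups. The mouse number as a replicate block gave 173 calls. Depth limits genes near 0.5 CPM, which rest on few reads.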
